A study of Mus musculus with 6 samples.

Results

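The genes described here encode the subunits of ionotropic and metabotropic glutamate receptors and of GABA-A and GABA-B receptors. They were chosen by symbol, as protein-coding genes named Gria, Grik, Grid, Grin, Grm, Gabra, Gabrb, Gabrg, Gabrd or Gabbr, and by a sum of 10 or more counts over 6 RNA-seq libraries. The rule found 41 symbols and kept 40 of the 37315 genes listed in the files. Grm6, a metabotropic receptor of retinal bipolar cells, was left out with 4 counts over the 6 libraries. The 40 genes fell into 4 AMPA, 5 kainate, 2 delta and 7 NMDA receptor genes, 2 group I, 2 group II and 3 group III metabotropic genes (mGlu), 6 alpha, 3 beta and 4 gamma or delta genes of the GABA-A receptor, and 2 GABA-B genes.

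All libraries came from the hippocampus of C57BL/6J mice aged 4 weeks, and the study asked what loss of Prrc2a, a protein that binds N6-methyladenosine (m6A) in mRNA, and gain of Fto, an enzyme that removes m6A, do to the transcriptome. In the Nestin-Cre pair, Prrc2a flox/flox (f/f) mice were set against Prrc2a f/f mice carrying Nestin-Cre, which recombines in neural progenitors and therefore in most neurons and macroglia. In the Olig2-Cre pair, Prrc2a f/f mice were set against Prrc2a f/f mice carrying Olig2-Cre, which recombines in the oligodendrocyte lineage. That Cre is driven from the endogenous Olig2 locus, so these mice lack 1 working copy of Olig2, and their f/f controls do not. In the Fto pair, wild-type (WT) mice were set against mice with an Fto transgene (Fto Tg) under a ubiquitin C promoter, delivered by lentivirus. The f/f libraries are named the Nestin-pair control and the Olig2-pair control, both carry the floxed allele and no Cre, and no library of Cre alone was analysed here. Each group had 1 library, and whether several mice were pooled was not given in the sources used here. A test within a pair therefore compares 2 libraries and has no replicate check, and its standard errors (SE) and intervals cover counting error only.

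Glutamate is the main excitatory and GABA the main inhibitory transmitter of the forebrain. AMPA, kainate and NMDA receptors are cation channels of 4 subunits, and which subunits are built in sets their kinetics and calcium permeability. GABA-A receptors are chloride channels of 5 subunits, usually alpha, beta and gamma, with delta in place of gamma outside synapses. Metabotropic glutamate receptors and GABA-B receptors signal through G proteins, and GABA-B receptors need both of their subunits. In bulk tissue, fewer cells of a type and less RNA per cell cannot be told apart.

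The libraries held 18616540 to 35482589 counts, the lowest total being that of Olig2-Cre and the highest that of the Nestin-pair control. Levels are given in CPM, a gene's counts per 1000000 counts of its library, and, where genes are compared with each other, in RPKM, which is CPM per kilobase of exon. Prrc2a stood at 434 CPM in the Nestin-pair control and 184 CPM in Nestin-Cre, and at 389 CPM in the Olig2-pair control and 346 CPM in Olig2-Cre. Fto stood at 354 CPM in Fto Tg and 158 CPM in WT. The Nestin-Cre library stood apart from the other 5. Of its counts, 26.2% fell on mitochondrial genes, which held 7.97% to 8.86% elsewhere, and the median log2 ratio of all genes tested in its pair was −0.72. The counts of called receptor genes in that pair are therefore also given after scaling by trimmed means (TMM), which raised every log2 ratio of the pair by 0.68 and brought this median to −0.03. The receptor genes made up 0.599% to 0.665% of all counts in the 6 libraries, with the lowest share in Fto Tg and the highest in Nestin-Cre. Of the counts outside mitochondrial genes, they made up 0.901% in Nestin-Cre and 0.655% to 0.700% in the other 5.

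m6A is placed within a short consensus whose most frequent form is GGACU, written GGACT below. The longest annotated coding sequence of each gene was searched for GGACT on the transcribed strand, because the mark is on RNA. It was present in 37 of 40 receptor genes (92.5%) and in 76.4% of 16460 protein-coding genes with 10 or more counts. Receptor coding sequences were longer, with a median of 2724 bases against 1377, and per kilobase the medians were 1.12 and 1.07 matches. Grin3a had the most matches, 10, and Gabra4 and Gabrg1 had none in the coding sequence. A match describes the sequence only, and no m6A measurement was used here. The windows of 30 bases that follow belong to 6 receptor genes on which the comparisons turn. Each shows the first match whose window lies within 1 coding exon, with GGACT in capitals, read 5′ to 3′ on the strand of the gene, from the GENCODE M21 transcripts of GRCm38 (the assembly mm10).
Gria1 (exon 3 of 16, chr11:57185835-57185864, plus strand): tttatgaacgaaGGACTgtcaacatgctga
Grm5 (exon 1 of 9, chr7:87603160-87603189, plus strand): agagatacaactGGACTtatgtctcagctg
Grm2 (exon 2 of 6, chr9:106653963-106653992, minus strand): ggagcaggccctGGACTttgtgcgtgcctc
Gabra2 (exon 5 of 10, chr5:71014510-71014539, minus strand): ccagcaaaatctGGACTcctgataccttct
Gabrb2 (exon 9 of 10, chr11:42602185-42602214, plus strand): ccccaactagacGGACTaccaattatgatt
Gabbr2 (exon 2 of 19, chr4:46875770-46875799, minus strand): gacaatgcaaagGGACTgaaagccttctat

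In the 3 control libraries, the AMPA subunit Gria1 had the highest level per length, 145 ± 5.90 RPKM (mean ± SD, n = 3 controls). It was followed by Gabbr1, the ligand-binding GABA-B subunit, at 94.3 ± 5.91 RPKM and by Gria2, the AMPA subunit that makes the channel impermeable to calcium, at 63.2 ± 9.27 RPKM. At the other end stood Gabra6, a subunit of cerebellar granule cells, at 0.0607 ± 0.0916 RPKM, and the glycine-binding NMDA subunit Grin3b at 0.100 ± 0.0243 RPKM. Gabra6 had 0 counts in 3 libraries and 12, 8 and 1 in the others, and 0 counts allow up to 0.0845 CPM in the Nestin-pair control. Of 39 neighbours in the order of mean levels, 30 had control ranges that overlapped. Gria1 and Gabbr1 did not overlap with each other or with the gene after them, whereas the ranges of Grik5, Gabra5 and Gabbr2, at 47.3 to 41.9 RPKM, overlapped each with the next.

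**Figure D1:**
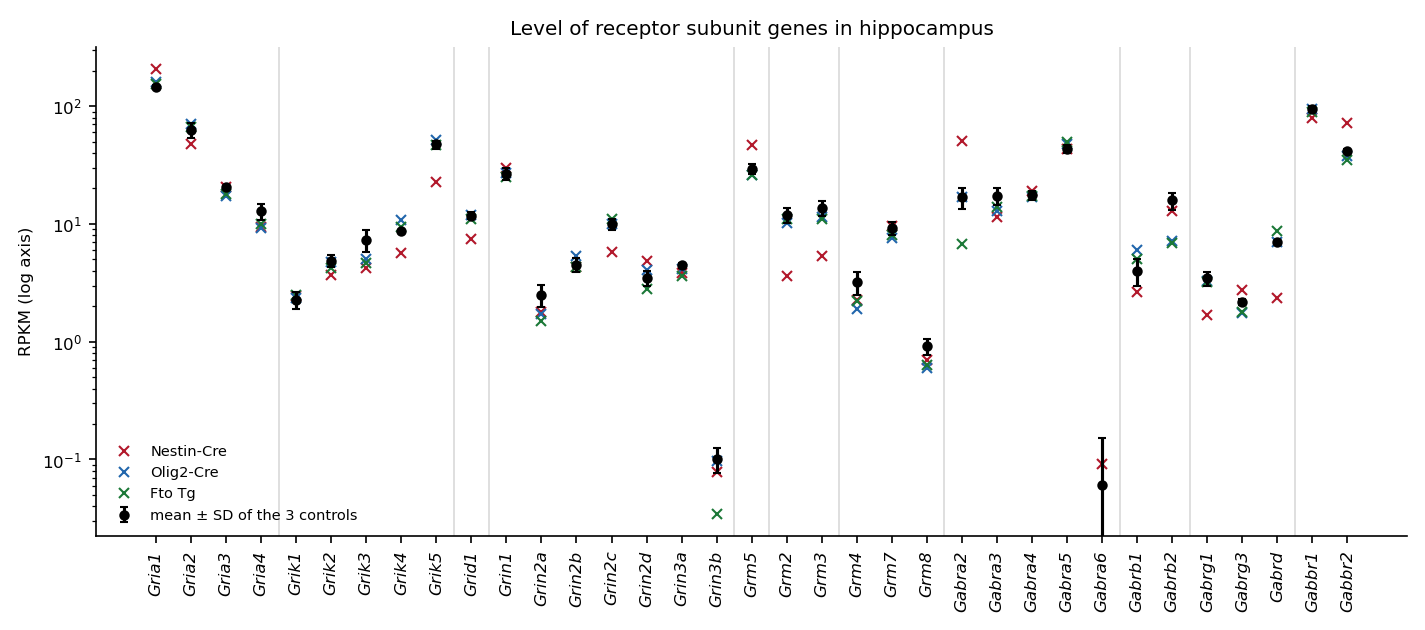
Level of 35 receptor genes in RPKM on a log axis, grouped by receptor class, with black points and bars for the mean ± SD of the 3 controls and crosses for the 3 altered libraries. Gria1 is highest at 145 RPKM, Gabra6 and Grin3b lie at or below 0.100 RPKM, the Nestin-Cre crosses stand farthest from the controls for Gabra2, Grm2 and Gabrd, and Gabra6 has no cross where a library held 0 counts.

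Within classes, the controls shared a composition. Gria1 made up 60.1% ± 2.67 and Gria2 26.1% ± 2.66 of AMPA receptor RPKM. Grik5, an auxiliary kainate subunit that needs Grik1, Grik2 or Grik3 to form a channel, made up 67.1% ± 1.43 of the kainate class. The obligatory subunit Grin1 made up 51.4% ± 1.39 of the NMDA class and Grin2c, the glial and cerebellar subunit, 19.3% ± 0.330. Grin2b, which predominates early in development, took 8.74% ± 0.740, and Grin2a, which replaces it in part as synapses mature, 4.93% ± 1.28. The extrasynaptic, hippocampus-enriched Gabra5 made up 30.1% ± 1.6 of the alpha class. Union exon length was used, so a long 3′ end, as in Grin2a and Grin2b, lowers RPKM where it is not fully used. Grin1os covered 13.5% of Grin1 exon bases on the other strand and Tmem259 32.1% of those of Grin3b. The counting did not use strand, so reads of these partners cannot be told apart from those of the receptor genes.

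The controls were first compared with each other, with the read test used for the pairs (MARS, false discovery rate (FDR) below 0.001 and a fold of at least 1.2). Between the 2 f/f libraries, 12 of 40 receptor genes were called, beside 13.1% of all genes. Between WT and the Nestin-pair control, 16 of 39 were called, beside 17.3% of all genes, and between WT and the Olig2-pair control 7 of 40, beside 7.20%. Thus receptor genes were called between unaltered mice at 17.5% to 41.0%, above the share of all genes in each of the 3 comparisons. Here and in the pairs below, that share includes genes with as few as 10 counts, which the read test calls less readily. Among genes with 100 or more counts, the log2 ratios of receptor genes had the smaller SD in each comparison. In the order above it was 0.29, 0.28 and 0.24, against 0.39, 0.43 and 0.30 for all genes. The log2 ratios of Gabrb1, a beta subunit, were 0.73 and 0.63 against the Nestin-pair control, from 39.4 CPM there to 65.4 and 60.8 CPM in the other controls. Grin2a ranged from 34.9 through 46.4 to 53.8 CPM, with a log2 ratio of 0.62 between the f/f libraries. Gabra2, an alpha subunit of synapses on the axon initial segment, stood at 142 and 145 CPM in the f/f libraries and at 97.6 CPM in WT, a log2 ratio of −0.54 and −0.57. The read test counts only sampling of reads, and these values give the size of difference that unaltered animals of separate experiments showed.

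In the Nestin-Cre pair, 9 of 39 receptor genes tested were called higher, beside 11.5% of all genes, and 17 lower, beside 53.4% of all genes. With TMM scaling the counts were 24 higher and 5 lower, beside 28.4% and 29.8% of all genes. The median log2 ratio of the receptor genes was −0.19 with library totals, against −0.72 for all genes, and 0.50 with TMM, against −0.03. The median receptor gene thus lay about 0.53 above the median gene. This distance is the same on both scales by construction, as TMM shifts every ratio of the pair equally. An adjustment for GC content and exon length, fitted over all genes, gave 16 higher, beside 27.6% of all genes, and 9 lower, beside 27.8%, with a median of 0.16. Of the 26 genes called with library totals, 9 were called higher and 7 lower after that adjustment as well, and 4 (Grik5, Grin2c, Grm4 and Gabbr1) were called lower before it and higher after it. With edgeR's exact test and the spread of the 3 controls (biological coefficient of variation 0.146, FDR below 0.05), 4 genes were called higher, beside 7.41% of all genes, and 9 lower, beside 44.8%.

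**Figure D2:**
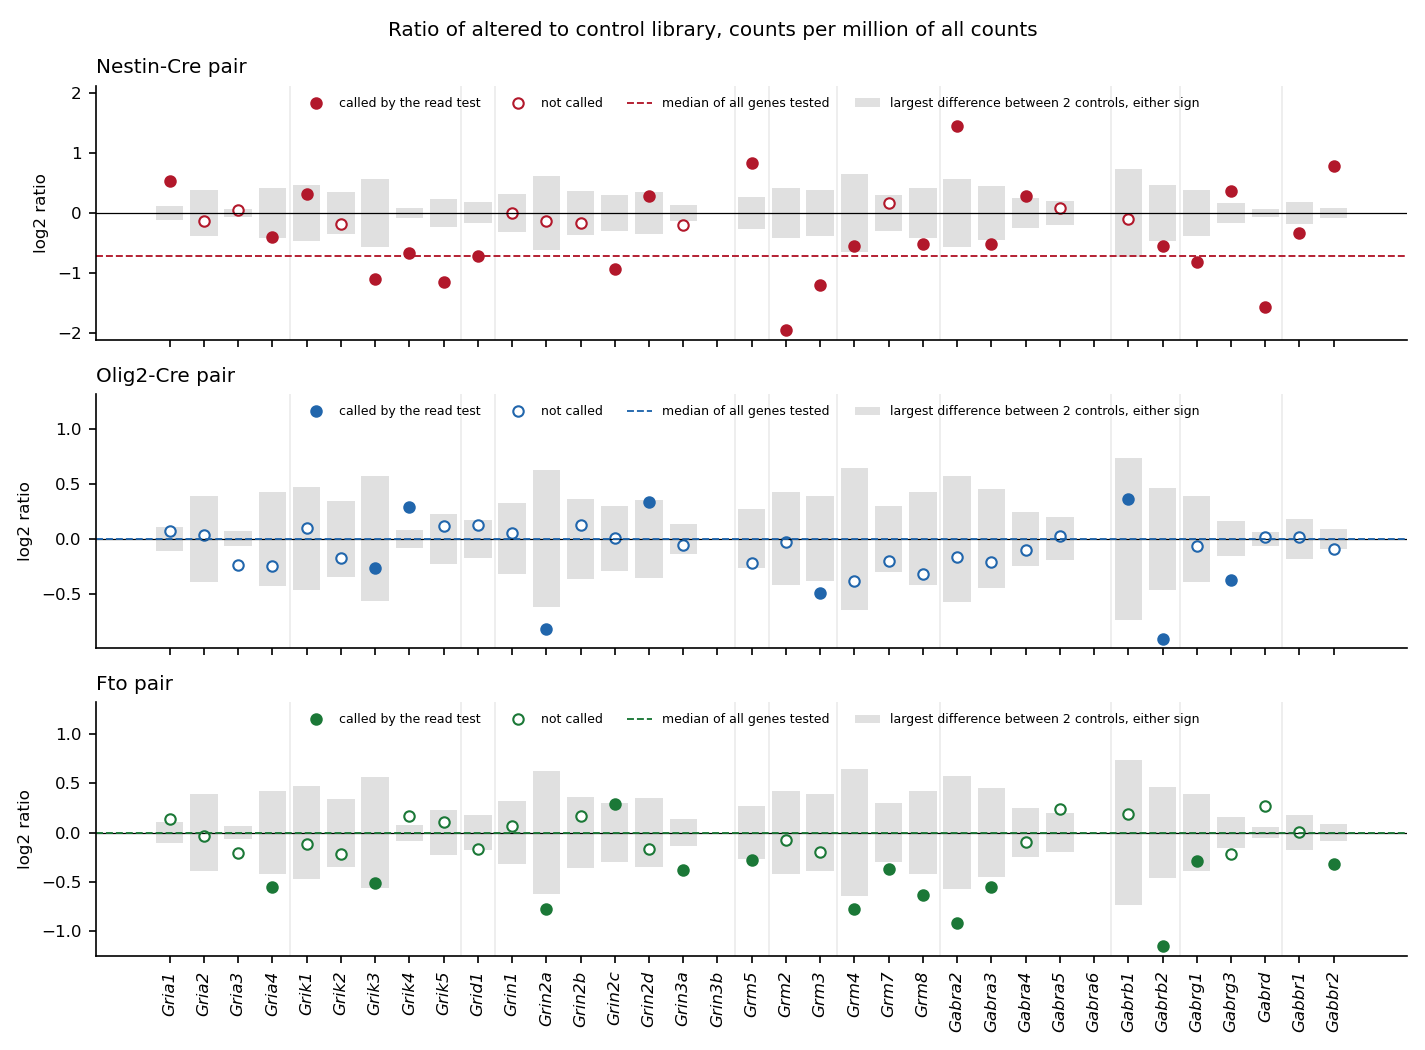
Log2 ratio of the altered over the control library for receptor genes with 100 or more counts over the pair, in 3 panels, with filled points where the read test made a call, a dashed line at the median of all genes tested and grey bars for the largest difference between any 2 controls. In the Nestin-Cre panel the dashed line lies at −0.72 and most points lie above it; in the other panels it lies near 0, and Gabrb2 is the lowest point in both.

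Gabra2 had the highest ratio of the pair. Its level was 142 CPM in the f/f and 388 CPM in the Nestin-Cre library. The log2 ratio was 1.45 ± 0.0225 (SE of read sampling), and the other 4 libraries lay between 51.4 and 145 CPM. It was called higher with library totals, TMM, the adjustment and the exact test. Gabra4 and Gabrg3 were called higher with smaller ratios, 0.28 and 0.37.

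Gabrd, Gabrg1, Gabra3 and Gabrb2 were called lower. Gabra3 and Gabrb2 turned to 0.17 and 0.14 with TMM, and neither was called with TMM or after the adjustment. Gabrd, the extrasynaptic delta subunit of dentate granule cells, stood at 20.2 CPM in the f/f and 6.79 CPM in the Nestin-Cre library, and between 19.98 and 25.1 CPM in the other 4. The log2 ratio was −1.57 ± 0.101, and it was called lower on every scale (−0.88 with TMM and −0.39 adjusted). Gabrg1, at 23.5 and 13.3 CPM, was called lower with library totals and after the adjustment, and not with TMM.

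Most GABA-A genes lie in clusters that arose by duplication, and neighbours in the cluster on chromosome 5 did not share a direction. There (GRCm38, 70751047 to 72149037), the log2 ratios in the Nestin-Cre pair were −0.82 for Gabrg1, 1.45 for Gabra2, 0.28 for Gabra4 and −0.11, not called, for Gabrb1. With TMM, Gabrg1 was at −0.13 and not called, and the other 3 were called higher. The farthest apart were direct neighbours, Gabra2 and Gabrg1. In the Fto pair the same cluster gave −0.29 for Gabrg1 and −0.92 for Gabra2, while Gabra4 and Gabrb1 were not called at −0.10 and 0.19. Gabra4 and Gabrb1 share 46 exon bases on opposite strands.

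Among metabotropic receptors, the group I receptor Grm5, which couples to phospholipase C, stood at 270.2 CPM in the f/f and 479.5 CPM in the Nestin-Cre library, with 266 to 325 CPM in the other 4 libraries. Its log2 ratio was 0.83 ± 0.0181. Both group II receptors, which inhibit adenylyl cyclase and act mainly before the synapse and in astrocytes, were called lower. Grm2 fell from 67.9 to 17.7 CPM (−1.94 ± 0.0585), the lowest ratio of the receptor genes tested in the pair, against 49.8 to 56.9 CPM in the remaining libraries. Grm3 fell from 37.3 to 16.3 CPM (−1.19 ± 0.0693). Both remained lower with TMM, at −1.26 and −0.51, and after the adjustment, at −0.71 and −0.52. Of the group III genes, Grm4 and Grm8 were called lower and Grm7 was not called. With TMM, Grm4 and Grm8 were not called at 0.13 and 0.16 and Grm7 was called higher at 0.86, and Grm4 was called higher after the adjustment (1.1).

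The AMPA subunit Gria1 rose from 861 to 1244 CPM, with 849 to 961 CPM in the other 4 libraries (log2 ratio 0.53 ± 0.0107). Gria2 was not called at 816 and 744 CPM, −0.13. It was called higher with TMM, at 0.55, and lower after the adjustment, at −0.43. Gria4, an AMPA subunit enriched in interneurons, was called lower (−0.39) and Gria3 was not called (0.05). With TMM both were called higher, at 0.29 and 0.73, and after the adjustment neither was called. In the kainate class, Grik5 had 262 CPM in the f/f and 118 CPM in the Nestin-Cre library (−1.15 ± 0.0259). It was called lower with library totals and TMM and higher after the adjustment, at 0.54. Across 38 receptor genes of 100 or more counts, measured in the same 2 libraries, the log2 ratio had a Spearman rho of −0.27 with GC content, and across all such genes it was −0.43. Grik3 was called lower on the 3 scales and Grik1 higher at 13.1 and 16.3 CPM (0.32). WT had more Grik1, 18.1 CPM, and was itself called higher than the Nestin-pair control (0.47). Among NMDA genes 1 was called higher (Grin2d, 0.27) and 1 lower (Grin2c, 55.8 to 29.3 CPM, −0.93), and with TMM 5 were called higher and 0 lower, Grin2c not being called at −0.24. Grin1 was the same in both libraries, 289 CPM, and with TMM it was called higher at 0.69. The GABA-B subunits went in opposite directions, Gabbr2 from 280.4 to 485 CPM (0.79 ± 0.0179) and Gabbr1 from 781 to 619.7 CPM (−0.33 ± 0.0130), the latter turning to 0.35 with TMM and 0.43 after the adjustment.

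**Figure D3:**
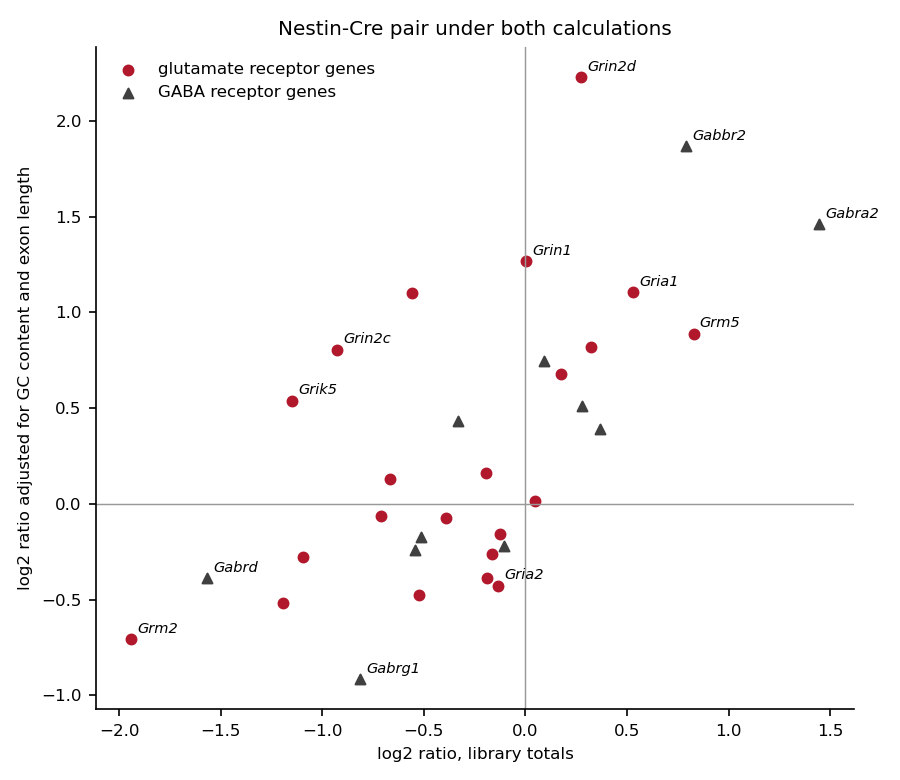
Log2 ratio of receptor genes in the Nestin-Cre pair with library totals (x axis) and after adjustment for GC content and exon length (y axis), with circles for glutamate and triangles for GABA receptor genes. Gabra2, Gabbr2, Gria1 and Grm5 lie above 0 on both axes, Grm2 and Gabrd below 0 on both, and Grik5 and Grin2c lie left of 0 on the x axis and above 0 on the y axis.

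Markers of other cell types moved in the same pair, in which 11.5% of all genes were called higher and 53.4% lower. With TMM these shares were 28.4% and 29.8%. Of 9 interneuron markers, 2 were called higher and 6 lower, and their summed level was 944 CPM in the f/f and 674 CPM in the Nestin-Cre library. All 6 markers of oligodendrocyte progenitors were called lower (437 and 151 CPM summed), as were all 6 of the choroid plexus (2897 and 278 CPM). For 8 neuron markers the counts were 4 and 3, with sums of 5828 and 6831 CPM, and for 8 hippocampal markers 2 and 4, with sums of 1019.7 and 1122 CPM. Of 8 oligodendrocyte markers 1 was called higher and 5 lower (9664 and 6613 CPM), and of 6 microglia markers 1 and 4 (248 and 160.2 CPM). With TMM the counts higher and lower were 3 and 4 for interneurons, 0 and 5 for progenitors and for the choroid plexus, 5 and 2 for neurons, 4 and 4 for the hippocampus, 3 and 5 for oligodendrocytes and 2 and 4 for microglia. No marker of these lists had 0 counts in any library. Their part in the receptor ratios was not tested.

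In the Olig2-Cre pair, 3 of 40 receptor genes were called higher, beside 4.95% of all genes, and 5 lower, beside 6.91% of all genes. The median log2 ratio was −0.08, against −0.0031 for all genes, and class medians ran from −0.32 for group III mGlu genes to 0.10 for kainate genes. No AMPA, group III mGlu or GABA-B gene was called. With the exact test and the spread of the controls, no receptor gene was called, beside 0.113% of all genes in either direction. After the adjustment 5 were called higher, beside 3.45% of all genes, and 3 lower, beside 3.47%.

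Gabrb2, a beta subunit of synaptic GABA-A receptors, fell from 86.0 CPM in the f/f to 45.9 CPM in the Olig2-Cre library. This was the lowest ratio called, −0.91 ± 0.0527, and −0.80 after the adjustment. The Nestin-pair control and WT had more, 119 and 97.3 CPM. Grin2a fell from 53.8 to 30.6 CPM (−0.82 ± 0.0656, and −0.56 adjusted). Its level in the other f/f control was 34.9 CPM, so the distance to that control was smaller. Grm3 fell from 48.7 to 34.6 CPM (−0.49), and the other controls had 37.3 and 38.9 CPM. Grik3 and Gabrg3 were called lower at −0.27 and −0.38, and neither was called after the adjustment.

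The 3 genes called higher were Gabrb1, Grik4 and Grin2d. Gabrb1 had 65.4 CPM in the f/f and 83.9 CPM in the Olig2-Cre library (0.36 ± 0.0486), above the 39.4 to 65.4 CPM of the 3 controls. Grik4, a high-affinity kainate subunit of CA3 neurons, had 52.3 and 63.8 CPM (0.29 ± 0.0550), above 50.3 to 53.2 CPM in the controls. Grin2d, an NMDA subunit of interneurons, had 21.6 and 27.2 CPM (0.33 ± 0.0849), and the Nestin-pair control had 26.9 CPM. Of the controls, 1 thus reached the level of Grin2d in the Olig2-Cre library within its counting error, and none reached those of Gabrb1 and Grik4. In this pair 4.95% of all genes were called higher and 6.91% lower. Interneuron markers summed to 945 and 1106 CPM with 3 of 9 called higher. Choroid plexus markers summed to 2223 and 3448 CPM with 3 of 6 called higher and 1 lower. Oligodendrocyte markers summed to 8510 and 6758 CPM with 5 of 8 called lower and 0 higher, and progenitor markers to 386.4 CPM in both libraries with 1 of 6 called higher and 4 lower. Their part was not tested.

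In the Fto pair, 1 of 39 receptor genes tested was called higher, beside 6.97% of all genes, and 14 lower, beside 8.51% of all genes. The median log2 ratio was −0.17, against −0.01 for all genes. It was −0.14 with TMM and −0.01 after the adjustment, with which 3 genes (Gria2, Grin2b and Gabrb1) were called higher, beside 5.17% of all genes, and 9 lower, beside 4.03%. All 9 were among the 14. With the exact test and the spread of the controls, 1 gene was called, Gabrb2, lower with an FDR of 0.0437, beside 0.277% of all genes lower and 0.111% higher. Against the Nestin-pair control in place of WT, 6 were called higher, beside 11.4% of all genes, and 12 lower, beside 12.7%. Against the Olig2-pair control 1 was called higher, beside 8.89%, and 8 lower, beside 10.3%, and both comparisons were chosen after seeing the data.

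Gabrb2 stood at 97.3 CPM in WT and 43.6 CPM in Fto Tg, a log2 ratio of −1.16 ± 0.0461, the lowest of the 14. Gabra2 fell from 97.6 to 51.4 CPM (−0.92 ± 0.0442), while the f/f controls had 142 and 145 CPM. Both levels in Fto Tg were under those of all 3 controls. Among controls, the log2 ratio farthest from 0 was −0.46 for Gabrb2 and −0.57 for Gabra2, nearer to 0 than the ratios of the Fto pair. Gabra3 was called lower as well, from 80.1 to 54.6 CPM. Gabrg1 was called lower at −0.29, and not after the adjustment.

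All 3 group III mGlu genes, whose products lie at the presynaptic active zone, were called lower. Grm4 fell from 22.9 to 13.4 CPM (−0.77 ± 0.0890), Grm8 from 9.84 to 6.33 CPM (−0.64 ± 0.132) and Grm7 from 61.5 to 47.6 CPM (−0.37 ± 0.0506). In the Olig2-pair control, Grm4 stood at 14.6 CPM and Grm8 at 7.44 CPM, near the Fto Tg level, and Grm7 had 49.9 and 51.2 CPM in the f/f controls. After the adjustment Grm8 was not called (−0.39). Grm5 was called lower as well, at −0.28, but not with TMM (−0.26) or after the adjustment (−0.04), and neither group II gene was called. Among ionotropic glutamate receptors, Grin2a fell from 46.4 to 27.1 CPM (−0.77 ± 0.0625), Gria4 from 93.3 to 63.6 CPM (−0.55 ± 0.0424) and Grik3 from 60.4 to 42.2 CPM (−0.52 ± 0.0524). Grin3a was called lower at −0.38, and not after the adjustment. Gabbr2 was called lower at −0.32, from 288 to 231 CPM. The gene called higher was Grin2c, from 45.4 to 55.5 CPM (0.29 ± 0.0525), and the Nestin-pair control had 55.8 CPM. It was not called after the adjustment (0.22). In the Fto pair 6.97% of all genes were called higher and 8.51% lower. Choroid plexus markers summed to 1669 CPM in WT and 701 CPM in Fto Tg, with 6 of 6 called lower. Between controls, 6 of 6 were also called lower in WT against the Olig2-pair control (2223 CPM). Against the Nestin-pair control (2897 CPM) 5 of 6 were. The 9 interneuron markers summed to 995 and 1076 CPM in WT and Fto Tg, with 3 called higher and 1 lower. The 8 oligodendrocyte markers summed to 9804 and 11333 CPM, with 3 called higher and 0 lower. The part of these markers was not tested.

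Each altered library was also set against the range of all 3 controls. Of 40 receptor genes, 9 lay above the range in the Nestin-Cre library, beside 17.7% of all genes, and 22 below it, beside 66.9% of all genes. With TMM scaling the counts were 26 and 6, beside 39.0% and 43.1% of all genes. Grik5, Grm2, Grm3, Gabrg1 and Gabrd were among the genes below the range with TMM. In the Olig2-Cre library 9 lay above, beside 28.3% of all genes, and 17 below, beside 30.2% of all genes. In the Fto Tg library 5 lay above, beside 27.7% of all genes, and 19 below, beside 29.4% of all genes. As the 3 libraries were read against the same controls, these counts are not independent of each other.

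The 3 pairs have separate controls and their calls can be listed together. Grik3 and Gabrb2 were called lower in all 3 pairs, although in the Nestin-Cre pair Gabrb2 turned to 0.14 with TMM and was not called after the adjustment. The share of all genes lower in all 3 pairs was not computed. With Grm3, 3 of 39 were lower in the Nestin-Cre and Olig2-Cre pairs, beside 3.50% of all genes. With Grin2a, 3 of 39 were lower in the Olig2-Cre and Fto pairs, beside 3.91%. Gabrb2 measured 119 and 81.3 CPM in the Nestin-Cre pair (−0.55), 86.0 and 45.9 CPM in the Olig2-Cre pair and 97.3 and 43.6 CPM in the Fto pair. With library totals, the Olig2-Cre and Fto Tg libraries were the lowest 2 of the 6, and Nestin-Cre was next to them and near the Olig2-pair control. With TMM, Nestin-Cre had the most Gabrb2 of the 6, 121 CPM, against 79.5 to 110 CPM in the controls. Olig2-Cre and Fto Tg remained lowest, at 42.0 and 40.7 CPM. Grin2a was called lower in the Olig2-Cre and Fto pairs, and in the Nestin-Cre pair it was not called at 34.9 and 32.0 CPM. Of the genes called in both the Nestin-Cre and Fto pairs, Grm5, Gabra2 and Gabbr2 were higher in the first and lower in the second, Grin2c was the reverse, and 7 of 39 were lower in both, beside 3.96% of all genes. With TMM in the Nestin-Cre pair, Grik3 remained called lower, Gria4 was called higher, and Grm4, Grm8, Gabra3, Gabrb2 and Gabrg1 were not called. The Nestin-pair control had the most Grik3, 80.8 CPM, against 54.6 CPM in the Olig2-pair control and 60.4 CPM in WT. Those controls were themselves called lower than it, at −0.57 and −0.42. With TMM, Nestin-Cre had 56.3 CPM of Grik3, within the range of the controls (50.4 to 74.8 CPM). Grin2d was the only receptor gene called higher in 2 pairs, those of Nestin-Cre and Olig2-Cre, beside 0.260% of all genes.

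**Figure D4:**
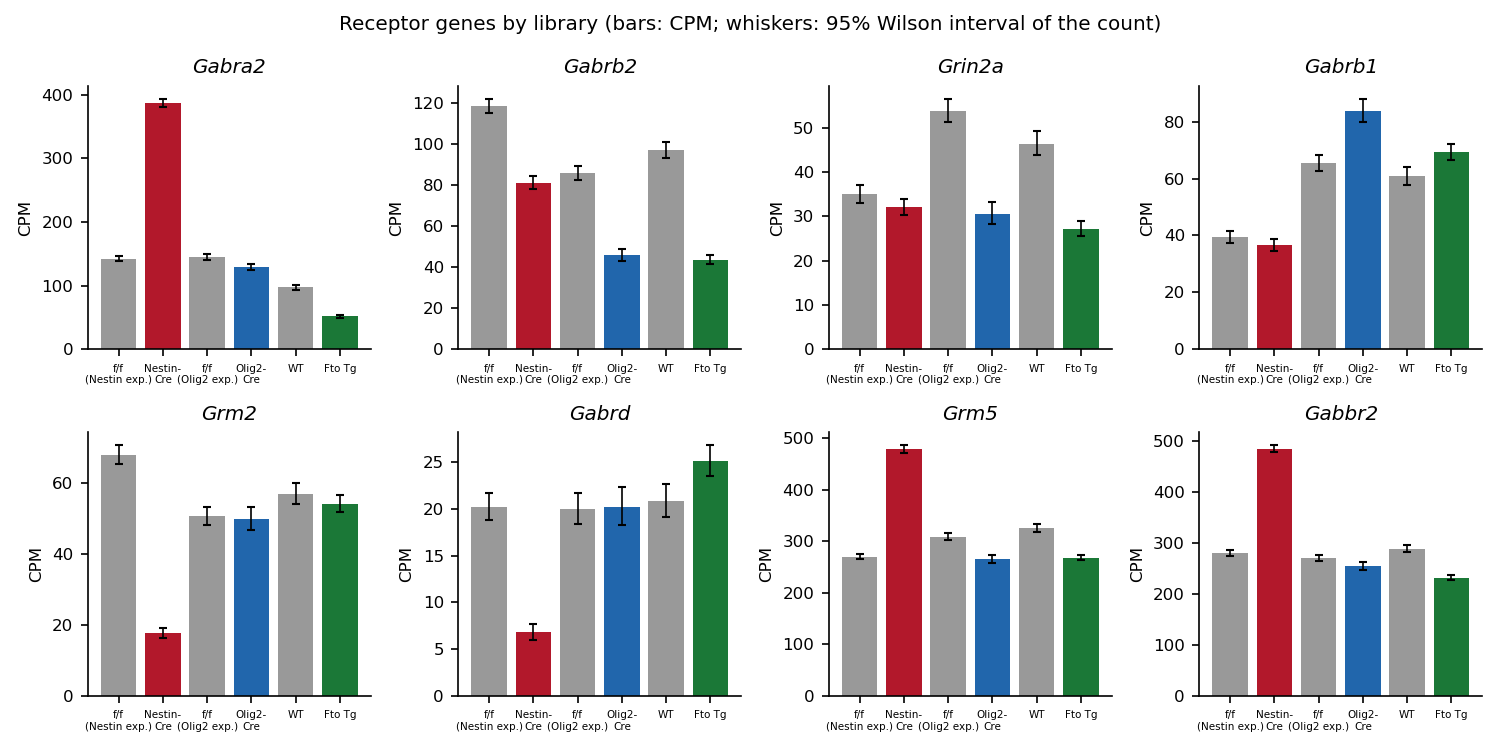
CPM of 8 receptor genes in each of the 6 libraries, bars from 0, with whiskers for the 95% Wilson interval of the count and grey for controls. Gabra2 is highest in Nestin-Cre (388 CPM) and lowest in Fto Tg (51.4 CPM), Gabrb2 and Grin2a are lowest in Olig2-Cre and Fto Tg, and Grm2 and Gabrd are low only in Nestin-Cre (17.7 and 6.79 CPM).

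Ratios of 2 subunits counted in the same library do not depend on how libraries are scaled. The 5 ratios given each set 2 subunits that can replace or join each other, and their intervals are exact binomial 95% intervals of the counts. The ratio of Gria2 to Gria1, on which calcium permeability of AMPA receptors depends, was 0.598 (0.589 to 0.607) in Nestin-Cre, with 0.948 to 1.26 in the controls. The Olig2-Cre and Fto Tg libraries lay within that range at 1.14 and 1.11. The ratio of Grin2a to Grin2b, which rises as synapses mature, was 0.231 (0.211 to 0.253) in the Olig2-Cre and 0.256 (0.238 to 0.275) in the Fto Tg library. The controls had 0.289, 0.443 and 0.492, and the Nestin-Cre library 0.297, close to its own control. The lowest control thus lay nearer to the altered libraries than to the other controls.

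Gabbr1 over Gabbr2 was 1.28 (1.25 to 1.30) in Nestin-Cre and 2.39 to 2.79 in the controls, and the other altered libraries were slightly above them, at 2.88 and 2.9996. Grik2 over Grik5 was 0.417 (0.394 to 0.441) in Nestin-Cre and 0.214 to 0.293 in the controls. The GC content of these genes is 37.9% and 61.7%. After the GC and length adjustment, Grik2 was called lower (−0.39) and Grik5 higher (0.54) in the Nestin-Cre pair, opposite to the direction of this ratio. Grm3 over Grm2 lay within the controls in all 3 altered libraries. GC content differs between the 2 genes of several ratios, and these ratios are not adjusted for it.

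**Figure D5:**
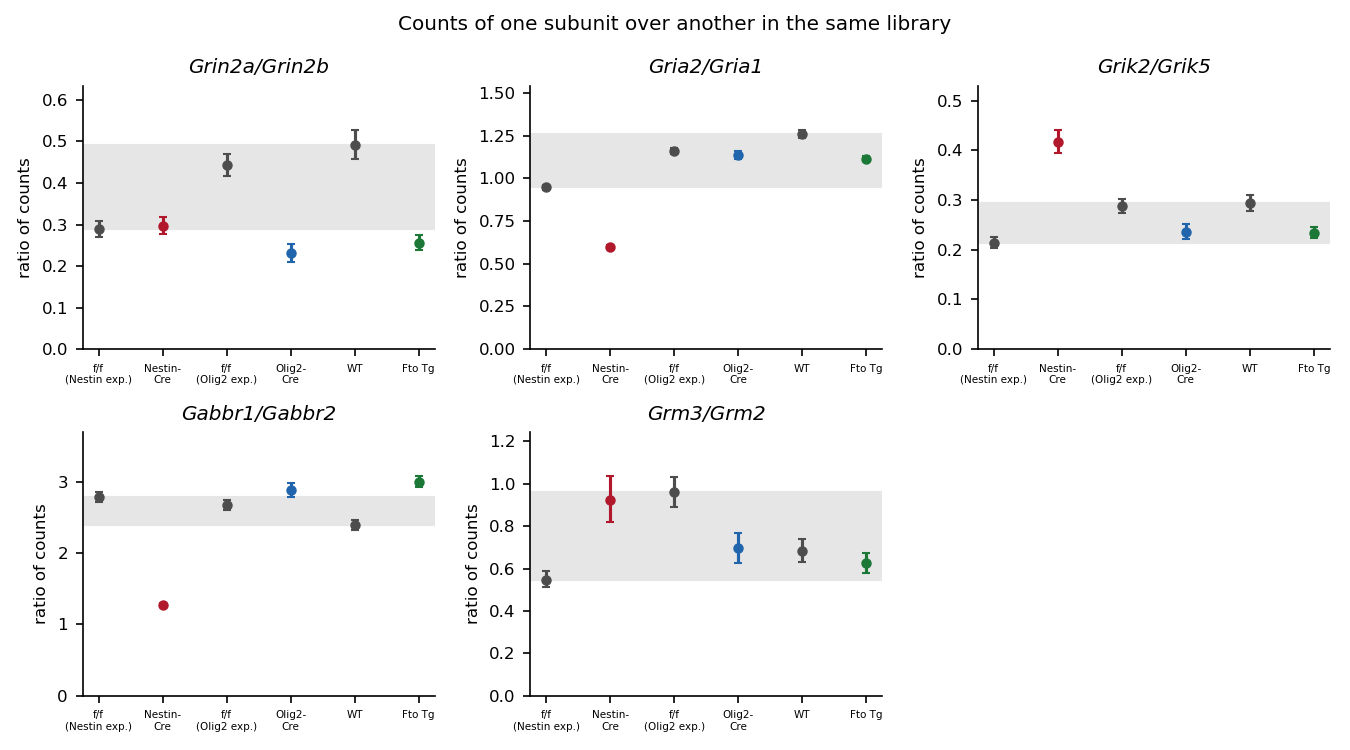
Ratio of the counts of 2 subunits in the same library, in 5 panels, with exact binomial 95% intervals and a grey band for the range of the 3 controls. Nestin-Cre lies outside the band for Gria2/Gria1 (0.598), Grik2/Grik5 and Gabbr1/Gabbr2, and Olig2-Cre and Fto Tg lie below it for Grin2a/Grin2b and just above it for Gabbr1/Gabbr2.

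Seen as class sums, kainate receptor RPKM was 38.9 in Nestin-Cre, against 66.1 to 74.9 elsewhere, and with TMM scaling 57.8 against 60.7 to 69.3. AMPA receptor RPKM was 284 in Nestin-Cre and 227 to 256 in the other 5, and with TMM scaling 422 against 211 to 234. The beta subunits summed to 59.8 RPKM in Olig2-Cre and 61.6 in Fto Tg against 71.1 ± 3.25 in the controls. The mGlu genes summed to 67.7 and 67.5 RPKM against 77.4 ± 3.22. Grm5 made up 62.3% of the mGlu sum in Nestin-Cre and 35.6% to 39.5% elsewhere, and Gabra2 29.1% of the alpha sum there, 4.9% in Fto Tg and 8.7% to 13.6% in the others.

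The only comparison with more than 1 library in each arm set both Cre libraries against both f/f libraries. With edgeR's quasi-likelihood test, 0 of 39 receptor genes and 0 of 16921 genes were called at an FDR below 0.05, a background of 0%. At an unadjusted p below 0.05, 0 receptor genes and 143 genes passed. DESeq2 called 0 receptor genes and had 1 below an unadjusted p of 0.05. The lowest receptor FDR, that of Gabra2, was 0.955, with a log2 fold change of 1.40 between Cre and f/f. The 2 pairs did not share this direction. The log2 ratio of Gabra2 was 1.45 in the Nestin-Cre pair and −0.17, not called, in the Olig2-Cre pair (145 and 129 CPM). Without the Olig2-Cre library, 18 receptor genes were called higher, beside 23.5% of all genes, and 4 lower, beside 24.3%, when the Nestin-Cre library alone stood for the Cre arm and was assumed to vary like the controls. Without any of the other 3 libraries, 0 were called.

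Genes whose products work with the receptors were taken from a list of 67, of which 63 were tested in each pair. The read test called 16 higher and 31 lower in the Nestin-Cre pair, beside 11.5% and 53.4% of all genes. It called 7 and 9 for Olig2-Cre, beside 4.95% and 6.91%, and 4 and 15 for Fto Tg, beside 6.97% and 8.51%. With TMM scaling the Nestin-Cre counts were 33 and 17, beside 28.4% and 29.8%. Of 14 AMPA receptor auxiliary genes, 7 were called higher and 7 lower in the Nestin-Cre pair, and 9 and 3 with TMM. Cacng2 (stargazin) stood at 94.4 CPM in the f/f and 214 CPM in the Nestin-Cre library, whereas Cacng8, the hippocampal member of the same family, stood at 102 and 9.64 CPM and Cnih2, an export factor of AMPA receptors, at 311 and 57.7 CPM. Cnih2 was called higher in the other 2 pairs, at 0.45 and 0.53. Of the transporters that load glutamate and GABA into vesicles, Slc17a7 at 1407 and 373 CPM and Slc32a1 at 59.4 and 8.37 CPM were called lower in the Nestin-Cre pair. Slc17a8 was called higher at 6.03 and 10.5 CPM, and Slc17a6 was not called at 32.6 and 33.8 CPM. Of the 2 enzymes that make GABA, Gad1 was called lower (−1.04) and Gad2 higher (0.75).

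Among 18 scaffold genes of glutamate synapses, 5 were called lower and 0 higher in the Olig2-Cre pair, beside 6.91% and 4.95% of all genes, and 6 lower and 1 higher in the Fto pair, beside 8.51% and 6.97%. After the adjustment the counts were 4 lower and 0 higher, and 2 lower and 3 higher. Between controls, WT had 5 lower and 0 higher against the Olig2-pair control, beside 7.20% of all genes in either direction. Against the Nestin-pair control it had 8 and 1, beside 17.3%. The Olig2-pair control had 4 and 1 against the Nestin-pair control, beside 13.1%. In the Nestin-Cre pair 9 were lower and 2 higher, beside 53.4% and 11.5%, and with TMM 4 and 10, beside 29.8% and 28.4%. Dlg2 (PSD-93) had 238 and 158 CPM in the Olig2-Cre pair and 250.0 and 161 CPM in the Fto pair, called lower in both. Homer1, which links group I mGlu receptors to the scaffold, was called lower in the same pairs with 239 and 160.4 CPM, and 171 and 134 CPM. The Nestin-pair control had 116 CPM, below the Homer1 levels of the Olig2-Cre and Fto Tg libraries. Slc17a6, the vesicular glutamate transporter of thalamic and other subcortical neurons, fell from 35.9 to 16.4 CPM in the Olig2-Cre pair and from 41.2 to 27.7 CPM in the Fto pair. Thalamic markers summed to 159 and 139 CPM in the first of these pairs, with 1 of 7 called higher and 2 lower, and to 176 and 138 CPM in the second, with 0 higher and 1 lower. Their part in the receptor ratios was not tested.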

How the data were processed

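RNA of hippocampus was sequenced by the study after mRNA selection (TruSeq v2, HiSeq3000). The authors trimmed and filtered reads, aligned them to mm10 with TopHat (TopHat2 2.0.9 in the submitters' processing notes, another release in the methods) and deposited whole-number counts per Ensembl gene from HTSeq 0.6 in union mode, unstranded, uniquely mapped reads only. Whether reads were single or paired differs between labels and methods. Symbols were found for 95.2% of identifiers.

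Counts were scaled by library totals. Pairs were compared by the MARS read test, the study's choice, programmed here (pseudocount 0.5, at least 10 counts over the pair, Benjamini-Hochberg FDR below 0.001, fold of at least 1.2) and tested on simulated data. Alternatives were TMM and DESeq2 size factors, totals without mitochondrial genes, a GC and length fit on genes with 100 or more counts, other filters, another control, and edgeR's exact test. Cre against f/f used edgeR 4.0.16 (quasi-likelihood) and DESeq2 1.42.0, in R 4.3.3. Wilson (CPM) and Clopper-Pearson (ratios) 95% intervals cover counting error only.

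The receptor genes and all lists were chosen with earlier results of these data known. Named genes were the 3 highest and 3 lowest of each pair with 100 or more counts, the genes of the ratios, and Grin1, Gria2, Gabbr1 and Gabbr2. Some receptor genes enter the counts and class sums, but their own values and figure points are not reported here. Other genes were named from the counts and lists they belong to, after their values were seen.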

Additional observations from a re-analysis of the deposited data

Results flagged for a closer look

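Grik4 and Gabrg3 were called in opposite directions in the Nestin-Cre and Olig2-Cre pairs, in both of which 39 receptor genes were tested. Grik4 alone was lower in the first and higher in the second, beside 4.26% of all genes. Gabrg3 alone was the reverse, beside 1.52% of all genes. On the log2 scale, the ratio of Grik4 was −0.67 for Nestin-Cre and 0.29 for Olig2-Cre, and that of Gabrg3 was 0.37 and −0.38. The difference between the pairs was not tested, as each ratio rests on 2 libraries. Relative to the median gene, Grik4 did not stand apart in the Nestin-Cre pair, since its ratio was 0.018 with TMM and 0.13 after the GC and length adjustment, and it was called in neither. Gabrg3 remained higher in the Nestin-Cre pair with TMM (1.05) and after the adjustment (0.39), and its ratio in the Olig2-Cre pair was −0.39 with TMM and −0.15 after the adjustment, where it was not called.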

How the results depend on the processing

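Filters on low counts, pseudocounts and, in the control comparisons, other scalings kept the counts within 1.5 times. Of the genes outside the range of the controls, the Nestin-Cre library had 9 above and 22 below with library totals, 26 and 6 with TMM and 27 and 6 with DESeq2 size factors, and in the other 2 libraries these counts stayed within 1.5 times. In the Nestin-Cre pair, the counts called higher and lower were 24 and 5 with TMM, 24 and 5 with DESeq2 size factors, 15 and 10 with totals without mitochondrial genes, 16 and 9 after the GC and length adjustment, and 4 and 9 with edgeR's exact test. The median log2 ratio of −0.19 became 0.50, 0.53, 0.13 and 0.16 with the first 4 of these, and −0.17 against the other f/f control. In the Olig2-Cre pair, 5 and 3 were called after the adjustment and 0 and 0 by the exact test, and the median moved to −0.091 (TMM), −0.053 (DESeq2 size factors) and 0.015 (adjusted). In the Fto pair, 2 were called higher with TMM, 3 with DESeq2 size factors, 3 adjusted, 0 by the exact test and 6 against the Nestin-pair control, and 9 were called lower adjusted, 1 by the exact test and 8 against the Olig2-pair control. Its median moved to −0.14 (TMM), −0.13 (DESeq2 size factors), −0.0084 (adjusted), −0.14 against the Nestin-pair control and −0.12 against the Olig2-pair control. These comparisons of Fto Tg with f/f controls were chosen after seeing the data. No share of all genes is given here for DESeq2 size factors, for totals without mitochondrial genes or, in the Fto pair, for TMM. The receptor counts under those settings therefore cannot be read against a background. Between controls, the exact test called 1 receptor gene for f/f against f/f, and 0 for WT against either f/f library, also without a share of all genes. After the adjustment 9 were called for WT against the Nestin-pair control, beside 872 higher and 994 lower of all 17903 genes tested. The exact test uses a wider spread by construction, and for the other shifts the cause was not tested. In Cre against f/f, leaving out 1 library gave 0 to 22 called receptor genes, 22 without the Olig2-Cre library.

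Signs turned for some named genes. In the Nestin-Cre pair with TMM and DESeq2 size factors, the log2 ratio turned to 0.55 and 0.58 for Gria2, 0.50 and 0.53 for Grik2, 0.018 and 0.049 for Grik4, 0.56 and 0.59 for Grin2a, 0.52 and 0.55 for Grin2b, 0.13 and 0.16 for Grm4, 0.58 and 0.61 for Gabrb1, 0.14 and 0.17 for Gabrb2 and 0.35 and 0.38 for Gabbr1. After the adjustment it turned to 0.13 for Grik4, 0.54 for Grik5, 0.81 for Grin2c, 1.1 for Grm4 and 0.43 for Gabbr1. In the Fto pair, Gria2 turned to 0.33 after the adjustment and, against the Nestin-pair control, to 0.35 and Grin2c to −0.0088. The labels give no replicate numbers to pair by, and with each Cre library paired with the f/f library of its experiment, as a block in Cre against f/f, 0 receptor genes were called. With 1 library in a group, depth limits counting error only, and genes with few counts, such as Gabra6 and Grin3b, carry no direction.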
